A study of Mus musculus with 12 samples.

Results

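Foxp3, Ikzf2, Ikzf4, Lrrc32, Nrp1, Gpr83, Izumo1r, Cd83 and Capg are genes by which regulatory T cells (Tregs) are commonly told from other CD4+ T cells. These 9 genes were chosen by symbol from the 55228 symbols of the expression table, and all 9 were among the 15043 genes with enough RNA to be tested. They were followed in 12 RNA-seq libraries of cultured NOD mouse Tregs, 3 from each of 4 groups. EV no IL-2 and EV+IL-2 Tregs carried the empty MSCV retroviral vector with its Thy1.1 reporter. They differed in that the second was cultured with mouse IL-2 at 100 IU/ml after day 4. 1G12t and 3A10t Tregs carried the same vector with a tether, and were kept without IL-2 after day 4. A tether is an IL-2 variant (1G12 or 3A10) altered to bind an altered β chain of the IL-2 receptor and joined to that chain. In every group, transduction took place 2 days after activation and the wash at 4 days. By the methods of the study, the wash removed IL-2, with which Tregs had been cultured since activation. A Thy1.1 sort at 9 days, 5 days past the wash, gave the cells for RNA. The comparisons ask what IL-2 withdrawal, and its replacement by either tether, did to the genes of Treg identity.

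By the sample labels the starting cells came from the pooled lymph nodes of 16 mice that carried a GFP reporter of Foxp3, and were sorted as GFP+CD25+. The general methods of the study differ, naming spleens as well and a gate on CD62L and CD25 with no reporter. If the labels hold, the starting population was already chosen for one of the 9 genes. The pooled cells went through 3 separate sorts and activations, each of which supplied all constructs, so that libraries with the same replicate number share a sort. Replicates are separate cultures of one pool of cells and not separate animals, and p-values measure only the spread between these cultures.

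Foxp3 is the transcription factor that defines the Treg lineage, and mutations that disable it cause fatal autoimmunity. Helios, the product of Ikzf2, and Eos, the product of Ikzf4, are zinc finger proteins of the Ikaros family that work with Foxp3, Helios in keeping Treg identity stable and Eos as a corepressor. Among the surface proteins, Lrrc32 encodes GARP, which holds latent TGF-β on the cell surface, Nrp1 encodes neuropilin-1, a receptor for semaphorins, Gpr83 encodes an orphan G protein-coupled receptor, and Izumo1r encodes FR4, a folate receptor relative found on Tregs and anergic T cells. Cd83 encodes a surface glycoprotein of activated lymphocytes and dendritic cells, and Capg encodes a protein that caps actin filaments. IL-2 keeps Foxp3 expressed through STAT5, which binds regulatory elements of the gene.

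Sequence upstream of an annotated start of Foxp3 is shown because IL-2 was the variable of the experiment and STAT proteins bind the palindrome TTCNNNGAA. RefSeq annotation of GRCm38.p6 gave upstream windows for 5 of the 9 genes (Foxp3, Nrp1, Gpr83, Izumo1r and Capg), with 2 windows for Foxp3, which has 2 annotated starts there. Both strands read the same for this palindrome, which stands in 7.02% of 32851 windows of this length. It was found in 1 of the 6 windows of these genes, the second of Foxp3, 139 bases before the start. Those 250 bases, chrX:7580233-7580482 on the + strand, overlap no annotated exon of Foxp3, and capitals mark the match. Both Foxp3 windows lie inside the annotated span of the gene, chrX:7573644-7595245. They are thus upstream of a start but not of the whole gene.
Foxp3 second upstream window: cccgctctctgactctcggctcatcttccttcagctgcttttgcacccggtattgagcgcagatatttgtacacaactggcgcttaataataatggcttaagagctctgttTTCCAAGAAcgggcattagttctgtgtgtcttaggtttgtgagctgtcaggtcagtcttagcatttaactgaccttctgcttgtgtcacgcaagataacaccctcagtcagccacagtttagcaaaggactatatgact
The first Foxp3 window, chrX:7579426-7579675, has 109 of its 250 bases inside annotated exons of Foxp3. It held no match to the palindrome but a TATAAA 32 bases before its start, a motif that 12.4% of all windows held on either strand and none of the windows of the other 4 genes did. A match is a description of the letters and does not show that a protein binds there.

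TPM carry no read numbers, so the depth behind each value is unknown, and the spread between libraries is the only error given. TPM were divided by a scaling factor per library, which lay between 0.846 and 1.08, and all levels below are in these scaled TPM, a measure per transcript length. Between 30393 and 43285 symbols per library had a TPM above 0. The summed level of 6 T cell markers was 3932 to 5897 in the 12 libraries, against 8.42 to 16.2 for 3 B cell markers, 0.295 to 3.07 for 4 myeloid markers and 3.48 to 6.57 for 2 CD8 T cell markers. Il2ra, which encodes CD25, averaged 416 ± 19.4 (SD, n = 3) in EV no IL-2 and Ctla4, an inhibitory receptor of Tregs, 199.99 ± 12.1. The RNA thus held these markers of the labelled cell type. The starting cells had been sorted on CD25, so Il2ra is no separate check of it. The 3A10t libraries were less alike than those of other groups, with a median SD of a gene of 0.22 on the log2 scale against 0.11 to 0.15 in the other groups. 3A10t replicate 1 stood closest to EV no IL-2, with a median absolute log2 difference from the EV no IL-2 mean of 0.13 over all genes tested, against 0.40 for replicate 2 and 0.22 for replicate 3.

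All but 1 of the identity genes were abundant in all 4 groups. Over the 12 libraries Capg averaged 574 scaled TPM and Foxp3 479.5, which ranked 214 and 274 among the 15043 genes tested. Izumo1r followed at 232, Ikzf2 at 194, Ikzf4 at 129, Nrp1 at 116, Lrrc32 at 108 and Gpr83 at 95.9. Cd83 was the least abundant member at 13.3, close to the middle of the genes tested with a rank of 7545. The ratio of the highest to the lowest group mean was 1.17 for Ikzf4, 1.23 for Foxp3, 1.38 for Capg, 1.39 for Gpr83, 1.56 for Ikzf2, 1.71 for Nrp1, 1.78 for Izumo1r, 2.57 for Lrrc32 and 3.19 for Cd83. All other members, surface proteins among them, thus varied within a smaller range of group means than Lrrc32 or Cd83. In bulk RNA, fewer cells that express a gene and less of its RNA per cell cannot be told apart.

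**Figure D1:**
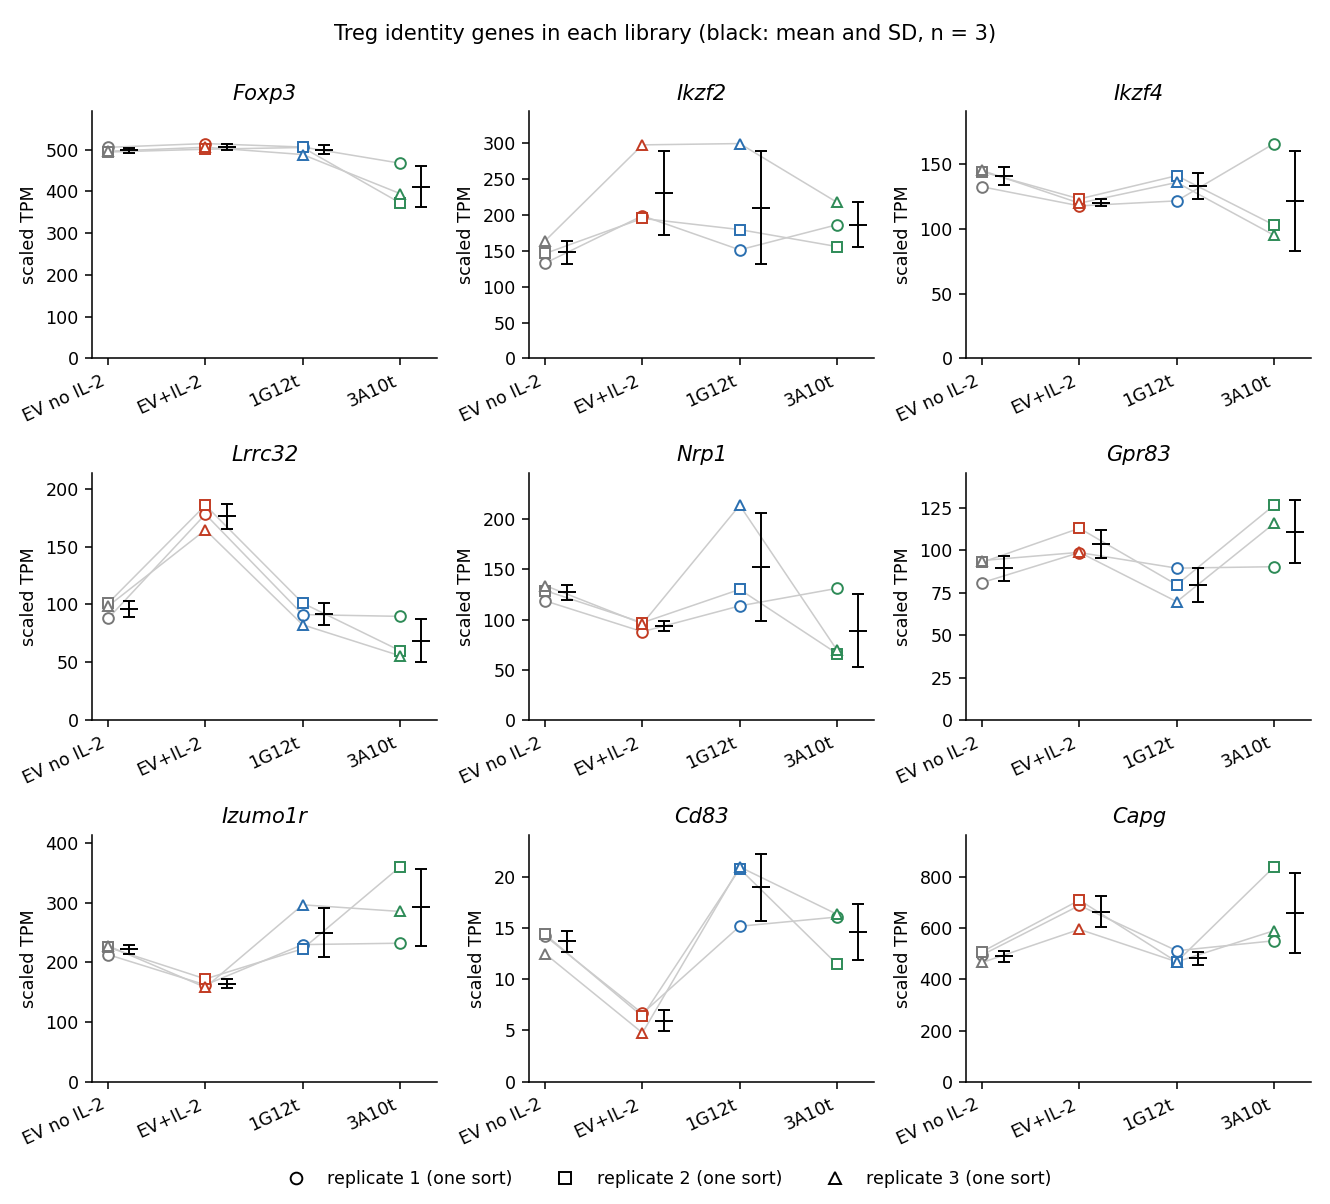
Scaled TPM (vertical axes, from 0) of each of the 9 genes in every library of the 4 groups (horizontal axes), with symbols for replicates 1 to 3, grey lines joining libraries of one sort, and black bars for the mean and SD of 3 libraries. Foxp3 lay between 488 and 515 in 9 libraries and between 373 and 468 in 3A10t, Lrrc32 was high and Cd83 low in EV+IL-2, and Ikzf2 was highest in replicate 3 in all 4 groups.

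With IL-2, 2 of the 9 genes passed the test against EV no IL-2 (limma, Benjamini-Hochberg adjusted p under 0.05 over all genes tested), Lrrc32 upward and Cd83 downward, beside 13.3% of all genes tested. In the same comparison 5 passed at an unadjusted p under 0.05, beside 26.3% of all genes. The libraries of the 2 groups did not overlap for 8 of the 9 genes, 4 above and 4 below, beside 39.6% of all genes, and the median log2 fold change was 0.024 for the 9 genes and −0.014 for all genes. With the 3A10 tether and no IL-2, 0 of the 9 passed by limma against EV no IL-2, beside 2.05% of all genes, and 5 passed at an unadjusted p under 0.05, beside 26% of all genes. Libraries did not overlap for 3 of the 9, beside 25.4% of all genes, and the medians were 0.075 and 0.026. With the 1G12 tether 0 of the 9 passed by limma, beside 0.0199% of all genes, and 1 (Cd83) at an unadjusted p under 0.05, beside 7.05%. Libraries did not overlap for that 1 gene, beside 16.5% of all genes, and the medians were 0.0034 and −0.0038. The 3 comparisons share the EV no IL-2 libraries.

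**Figure D2:**
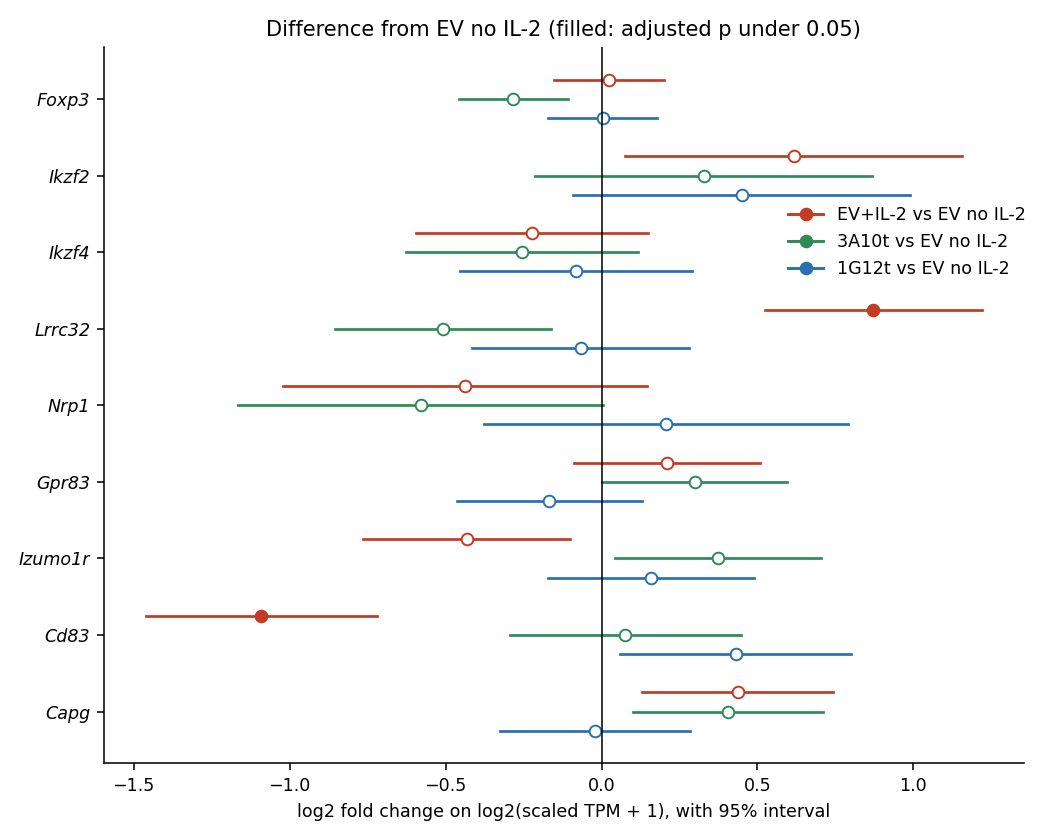
Difference of EV+IL-2 (red), 3A10t (green) and 1G12t (blue) from EV no IL-2 for each gene, as a log2 fold change on log2(scaled TPM + 1) with its 95% interval from limma, and filled symbols where the adjusted p is under 0.05. The filled symbols are Lrrc32 at 0.87 and Cd83 at −1.09, both in EV+IL-2.

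Foxp3 RNA hardly differed between EV Tregs with and without IL-2. It was 506, 495 and 496 scaled TPM in EV no IL-2 (replicates 1 to 3), 515, 501 and 506 in EV+IL-2, and 506, 505 and 488 in 1G12t. These 9 libraries lay within 488 to 515, and the 3 groups overlapped. In 3A10t it was 468, 373 and 395, and these 3 libraries were all below the other 9. The log2 fold change of EV+IL-2 against EV no IL-2 was 0.024 (95% interval −0.15 to 0.20, limma adjusted p = 0.915), and that of 1G12t was 0.0034 (−0.17 to 0.18, adjusted p = 1). The signs of these small differences were not fixed. The first turned to −0.038 with TPM as deposited, −0.15 with quantile normalization and −0.053 with protein-coding genes only, and the second fell below 0 without any 1 of 4 libraries, EV no IL-2 replicate 2 or 3 or 1G12t replicate 1 or 2, at −0.0058 at the lowest.

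For 3A10t the Foxp3 difference was −0.28 (SE 0.079, unadjusted p = 0.00469) from EV no IL-2 and −0.29 from 1G12t, and neither passed after adjustment (limma adjusted p = 0.0821 and 0.0595). Against EV+IL-2 it was −0.31, which did pass (adjusted p = 0.0192), with all 3 libraries below. That call was lost with quantile normalization, in a fit of only the 6 libraries compared, and without EV+IL-2 replicate 1, EV+IL-2 replicate 3 or 3A10t replicate 3, where the adjusted p was 0.0697, 0.0516 and 0.0622. With 1 library left out, the difference from EV no IL-2 ranged from −0.38 to −0.21 over 6 fits. In these fits it passed only without 3A10t replicate 1, at −0.38 (limma adjusted p = 0.00123). Within each sort the 3A10t library lay below its EV no IL-2 counterpart, by −0.11, −0.41 and −0.33. Foxp3 overlaps Flicr on its own strand, a noncoding RNA gene whose reads may be hard to separate from those of Foxp3, and the group means of Flicr lay between 39.2 (EV+IL-2) and 43.1 (3A10t). It also overlaps Ccdc22 and Ppp1r3f on the other strand.

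Helios RNA (Ikzf2) was higher on average with IL-2. It was 133, 146 and 164 in EV no IL-2. With IL-2 it was 199, 195 and 297, and all 3 libraries were higher. In 1G12t it was 151, 179 and 299, and in 3A10t 186, 156 and 217, and both groups overlapped EV no IL-2. Replicate 3 was highest in each of the 4 groups, as replicate 1 was for Foxp3. The log2 fold change with IL-2 was 0.62 (SE 0.24, limma adjusted p = 0.132), and with the replicate number as a block it was the same 0.62 and passed (adjusted p = 0.0232). Within the sorts the difference was 0.58, 0.41 and 0.86. From low to high the group means were EV no IL-2 (147), 3A10t (186), 1G12t (209.9) and EV+IL-2 (230.3), and no step between neighbours passed the test and all overlapped.

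Eos RNA (Ikzf4) had the smallest range of group means of the 9 genes. It was 132, 144 and 145 in EV no IL-2 Tregs, 118, 123 and 119.7 in EV+IL-2, 121, 141 and 136 in 1G12t, and 166, 103 and 94.99 in 3A10t. EV+IL-2 was below EV no IL-2 in all 3 libraries, by a log2 fold change of −0.22 that did not pass (SE 0.17, limma adjusted p = 0.477). The 3A10t libraries held both the highest value of all 12, in replicate 1, and the lowest ones, in replicates 2 and 3. Neighbours in the order of means, EV+IL-2, 3A10t, 1G12t and EV no IL-2, overlapped at every step.

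Lrrc32 rose with IL-2 and was at or below the EV level with either tether. GARP RNA was 87.9, 101 and 98.5 in EV no IL-2 Tregs, 178, 186 and 164 in EV+IL-2, 91.3, 101 and 82.4 in 1G12t, and 89.7, 60.1 and 55.6 in 3A10t. All 3 EV+IL-2 libraries were above the other 9. The log2 fold change with IL-2 was 0.87 (SE 0.16, limma adjusted p = 0.00405), with 1.01, 0.87 and 0.73 in the 3 sorts, and it passed under all 18 alternatives run. Against EV+IL-2, Lrrc32 was lower in 3A10t by −1.38 (adjusted p = 0.00022) and in 1G12t by −0.94 (adjusted p = 0.00217). From EV no IL-2 the difference was −0.51 in 3A10t (SE 0.16, adjusted p = 0.0996), where replicate 1 lay within the EV no IL-2 range and replicates 2 and 3 below it, and −0.067 in 1G12t (adjusted p = 0.927). With 1 library left out, the first ranged from −0.72 to −0.38 over 6 fits. In these fits it passed only without 3A10t replicate 1, at −0.72 (limma adjusted p = 0.00133).

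Nrp1 was lower with IL-2 in all 3 sorts but did not pass. It was 119, 129 and 134 in EV no IL-2 Tregs, 87.9, 96.9 and 95.9 in EV+IL-2, 114, 130.0 and 214 in 1G12t, and 131, 66.2 and 69.6 in 3A10t. EV+IL-2 lay below EV no IL-2 without overlap, by a log2 fold change of −0.44 (SE 0.26, limma adjusted p = 0.349). 1 library decided each tether's mean, 1G12t replicate 3 as the highest of the 12 and 3A10t replicate 1 as the only one of its group above 70 scaled TPM. Without 1G12t replicate 3 the difference of 1G12t from EV no IL-2 went from 0.21 to −0.062. That of 3A10t was −0.58, and with 1 library left out it ranged from −0.89 to −0.41 over 6 fits. In these fits it passed only without 3A10t replicate 1, at −0.89 (limma adjusted p = 0.0184).

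Gpr83 and Izumo1r are neighbours on chromosome 9, on opposite strands with 15024 bases and no annotated gene between them, and their levels did not follow each other over the 12 libraries (r = 0.071). Gpr83 was 81.0, 93.0 and 94.0 in EV no IL-2 Tregs, 98.7, 113 and 98.8 in EV+IL-2, 89.5, 79.7 and 69.8 in 1G12t, and 90.4, 127 and 116 in 3A10t. All 3 EV+IL-2 libraries were above EV no IL-2 (log2 fold change 0.21, SE 0.13, limma adjusted p = 0.376). 3A10t overlapped EV no IL-2 through its replicate 1 (0.30, adjusted p = 0.191) and lay above 1G12t in all 3 libraries (0.47, adjusted p = 0.0642).

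Izumo1r was 213, 225 and 228 in EV no IL-2 Tregs, 162, 172 and 158 in EV+IL-2, 229.7, 223 and 296 in 1G12t, and 232, 359.8 and 285 in 3A10t. EV+IL-2 held the 3 lowest values and 3A10t lay above EV no IL-2 in all 3 libraries. The difference of EV+IL-2 from EV no IL-2 was −0.43 (SE 0.15), short of the threshold (limma adjusted p = 0.0857), and passed in 6 of 18 alternatives. Both tethers differed from EV+IL-2, 3A10t by 0.81 (SE 0.15, adjusted p = 0.00382) and 1G12t by 0.59 (adjusted p = 0.0181). The call for 1G12t was lost without EV+IL-2 replicate 1 or 3 or 1G12t replicate 3 (adjusted p = 0.0604, 0.0571 and 0.068). From EV no IL-2, 3A10t differed by 0.37 (adjusted p = 0.155) and 1G12t by 0.16 (adjusted p = 0.815). With 1 library left out, the former ranged from 0.21 to 0.53 over 6 fits. In these fits it passed only without 3A10t replicate 1, at 0.53 (limma adjusted p = 0.022).

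Cd83 fell with IL-2 and did not fall on average with the tethers, although 3A10t replicate 2 lay below all EV no IL-2 libraries. It was 14.2, 14.4 and 12.5 in EV no IL-2 Tregs, 6.66, 6.38 and 4.77 in EV+IL-2, 15.2, 20.8 and 20.96 in 1G12t, and 16.1, 11.5 and 16.3 in 3A10t. The 3 EV+IL-2 libraries were below the other 9. The log2 fold change with IL-2 was −1.09 (SE 0.17, limma adjusted p = 0.0015), with −0.99, −1.06 and −1.22 in the 3 sorts, and it passed under all 18 alternatives run. Cd83 was higher than in EV+IL-2 by 1.17 in 3A10t (adjusted p = 0.000921) and 1.52 in 1G12t (adjusted p = 0.000151). From EV no IL-2 the difference was 0.43 in 1G12t, with all 3 libraries above (SE 0.17, unadjusted p = 0.0265, adjusted p = 0.703), and 0.075 in 3A10t (95% interval −0.30 to 0.45), whose sign turned to −0.062 with TPM as deposited. On this scale, with 1 added to each value, the change of so low a gene is understated, and the mean scaled TPM of EV+IL-2 was 0.434 of that of EV no IL-2.

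Capg was 495, 508 and 466 in EV no IL-2 Tregs, 688, 709 and 595 in EV+IL-2, 512, 468 and 468 in 1G12t, and 550.5, 839 and 589.8 in 3A10t. Every library of EV+IL-2 and of 3A10t was above every library of EV no IL-2 and of 1G12t. Neither difference from EV no IL-2 passed by limma, at 0.44 for EV+IL-2 (SE 0.14, adjusted p = 0.0634) and 0.41 for 3A10t (adjusted p = 0.116), and the first passed in 6 of 18 alternatives. 1G12t was lower than EV+IL-2 by −0.46 (adjusted p = 0.0396), a call lost in 7 of 18 alternatives, among them those without EV+IL-2 replicate 1 (adjusted p = 0.124) or 2 (0.136) and without 1G12t replicate 1 (0.0637), 2 (0.107) or 3 (0.11). From EV no IL-2 it differed by −0.020, a sign that turned to 0.023 with TPM as deposited, 0.087 with quantile normalization and 0.038 with protein-coding genes only. In the order of means, 1G12t (483) and EV no IL-2 (489.6) overlapped, as did 3A10t (659.7) and EV+IL-2 (664).

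No identity gene passed the test between the tethers and some passed against EV+IL-2, where a larger share of all genes tested passed as well. Between 3A10t and 1G12t, 0 of the 9 passed by limma, beside 4.27% of all genes tested, and 5 passed at an unadjusted p under 0.05 (Foxp3, Lrrc32 and Nrp1 lower, Gpr83 and Capg higher), beside 29.7% of all genes. Libraries did not overlap for 3 of these, Foxp3 below and Gpr83 and Capg above, beside 26.2% of all genes. Against EV+IL-2, 4 of the 9 passed in 3A10t, beside 23.4% of all genes, with Foxp3 and Lrrc32 lower and Izumo1r and Cd83 higher. The same count passed in 1G12t, beside 20.6% of all genes, with Lrrc32 and Capg lower and Izumo1r and Cd83 higher. The 1G12t count was 2 without EV+IL-2 replicate 1 or without 1G12t replicate 3. No overlap was seen with EV+IL-2 for 4 genes in 3A10t, beside 36.9% of all genes, and for 6 in 1G12t, beside 43.2%. The 2 comparisons share the EV+IL-2 libraries.

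By median difference from EV no IL-2, the 3 libraries of 3A10t stood in the same order in the identity genes as over all genes, but farther apart. The median absolute log2 difference of the 9 genes from the EV no IL-2 mean was 0.093 in replicate 1, 0.50 in replicate 2 and 0.37 in replicate 3. Over all genes tested it was 0.13, 0.40 and 0.22. A difference beyond 0.25 was seen for 1 gene in replicate 1 (Ikzf2), beside 29.3% of all genes tested, for 7 in replicate 2, beside 68.2%, and for 8 in replicate 3, beside 45.1%. Foxp3, Ikzf4, Lrrc32 and Nrp1 were lower and Gpr83, Izumo1r and Capg higher in both replicates 2 and 3. Without replicate 1, 7 of the 9 passed by limma against EV no IL-2, all but Ikzf2 and Cd83, beside 23% of all genes, and 6 passed against 1G12t, beside 27.3%. That fit leaves 3A10t with replicates 2 and 3, which had a trend on transcript length given below. Replicate 1 was not the farthest from its own group. Its median absolute log2 difference from the other libraries of the group was 0.26, against 0.29 for replicate 2 and 0.15 for replicate 3.

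Replicates 2 and 3 of 3A10t also had lower values for long transcripts. Their slopes on log2 of the longest annotated transcript were −0.089 and −0.059, against −0.0075 to 0.055 in the other 10 libraries. The 2 members with the shortest transcripts, Izumo1r (1291 bases) and Capg (1400 bases), were among those higher in replicates 2 and 3. Ikzf4 (5150), Lrrc32 (4576), Foxp3 (3834) and Nrp1 (3645) were the lower ones. Gpr83 (4258) was higher, the longest, Ikzf2 (9278), was not lower, and Cd83 (2477) was −0.23 in replicate 2 and 0.24 in replicate 3. Whether length accounts for the differences of the members was not tested. The median over all genes tested was 2682 bases. With a lowess correction of the trend on length, the 3A10t difference from EV no IL-2 shrank to −0.13 for Foxp3, −0.081 for Ikzf4, −0.33 for Lrrc32, −0.44 for Nrp1, 0.21 for Izumo1r and 0.25 for Capg, and grew to 0.47 for Gpr83. With that correction and without replicate 1, a setting added after the values were seen, 4 genes passed against EV no IL-2, beside 18.4% of all genes, namely Foxp3 at −0.16, Ikzf4 at −0.27, Lrrc32 at −0.48 and Gpr83 at 0.67.

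**Figure D3:**
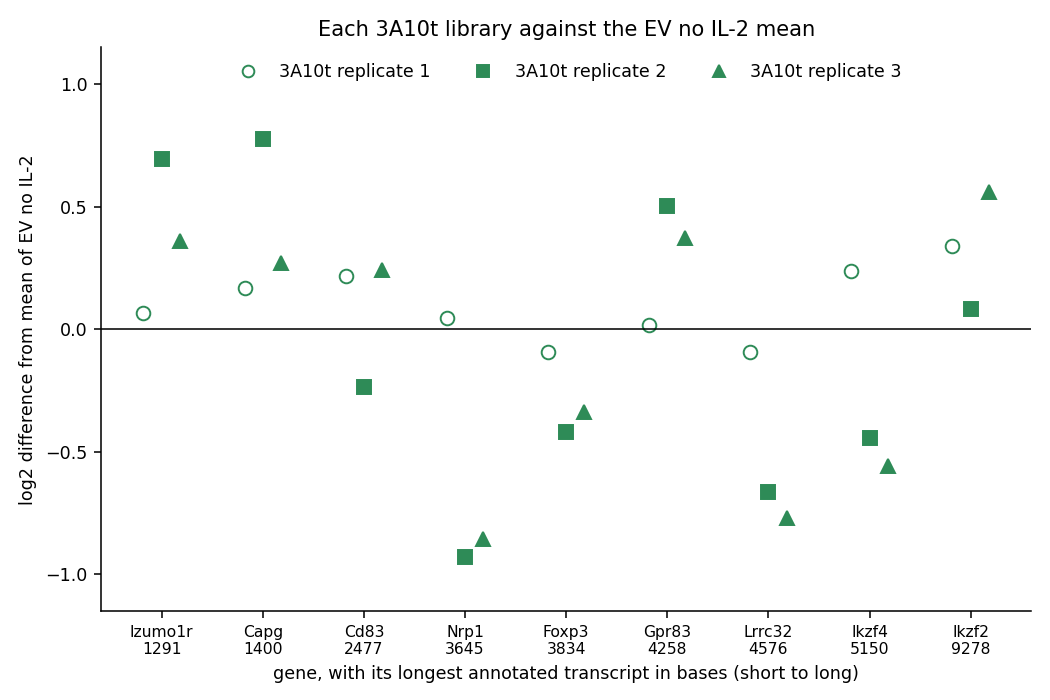
Log2 difference of each 3A10t library from the EV no IL-2 mean (vertical axis) for the 9 genes, ordered from short to long by the longest annotated transcript in bases (horizontal axis), with open circles for replicate 1 and filled squares and triangles for replicates 2 and 3. Replicate 1 stayed within −0.093 to 0.34, whereas replicates 2 and 3 reached −0.93 and −0.86 for Nrp1.

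The identity genes did not move as one group over the 12 libraries. Pearson's r between pairs of them, given as a description over 12 libraries that share 3 sorts, lay at −0.92 for Lrrc32 and Izumo1r, −0.90 for Nrp1 and Gpr83, 0.83 for Gpr83 and Capg, 0.78 for Ikzf4 and Nrp1 and 0.72 for Foxp3 and Lrrc32. Ikzf2 had no r beyond 0.25 with any other member. Among 8786 protein-coding genes that averaged 5 TPM or more, the genes most like Foxp3 in pattern were Nploc4 and Flii (both r = 0.99) and Raver1 (0.98), which like Foxp3 were lowest in 3A10t replicates 2 and 3. Lrrc32 was most like Dnmt1, Slc19a2 and Lpin1 (0.99, 0.98 and 0.98) and Cd83 most like Rgs16, Cd200 and Gcdh (0.98, 0.97 and 0.96). Izumo1r was most like Zfp36l1, Tspan32 and Tango2 (0.98 each), and Capg most like Cd2, Tmem242 and Gm10053 (0.99, 0.98 and 0.98). For the remaining members the best matches were Mbd5 for Ikzf2 (0.92), Cyb561d1 for Ikzf4 (0.95), Cd38 for Nrp1 (0.96) and Dph5 for Gpr83 (0.96).

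Some genes of Foxp3 regulation changed with IL-2, and most did not pass the test. Of 23 genes known to regulate Foxp3 transcription or stability, 2 rose and 5 fell in EV+IL-2 against EV no IL-2 (limma adjusted p under 0.05) and 16 did not pass, where 13.3% of all genes tested passed, with a median log2 fold change of −0.13 beside −0.014 for all genes tested. Uhrf1, a partner of the maintenance methyltransferase, rose by 1.65 (adjusted p = 3.22e-05), from 11.4 ± 0.80 to 37.8 ± 1.63 scaled TPM (SD, n = 3). The genes of both STAT5 proteins fell, Stat5b by −0.73 (adjusted p = 0.000861) and Stat5a by −0.65 (adjusted p = 0.00789), and so did Ets1, a factor that binds a Foxp3 enhancer, by −0.56 (adjusted p = 0.00543). With either tether 0 of the 23 passed by limma against EV no IL-2, beside 2.05% of all genes in 3A10t and 0.0199% in 1G12t, and between the tethers, where 4.27% of all genes passed, 2 were lower in 3A10t, Rel at −0.54 and Usp7 at −0.74. Of 11 tested genes whose proteins work with Foxp3, 2 rose with IL-2, Xbp1 by 0.88 and Ezh2 by 0.50, and 0 passed with either tether. Of the other 3 Ikaros family genes, Ikzf1, Ikzf3 and Ikzf5, 0 passed in any of the 6 comparisons, with differences from EV no IL-2 of −0.24 for Ikzf1 and −0.62 for Ikzf3 in EV+IL-2 and −0.56 for Ikzf1 in 3A10t.

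Calls among the partners and relatives of the surface members and of Capg differed from list to list. Their counts stand beside the same shares of all genes tested, 13.3% with IL-2, 2.05% in 3A10t and 0.0199% in 1G12t against EV no IL-2 and 4.27% between the tethers. Of 5 genes that act with Lrrc32 in holding or releasing TGF-β, 0 passed with IL-2, where Tgfb1 differed by 0.33 (adjusted p = 0.303) and Itgb8, an integrin chain that releases it, by −0.71 (limma adjusted p = 0.0697). Between the tethers 1 of the 5 passed, Itgav, lower in 3A10t at −0.68. Of 6 tested partners of Nrp1, 3 rose with IL-2, Sema4a, a ligand of neuropilin-1, by 1.89 (adjusted p = 4.2e-05), Nrp2 by 0.73 and Vegfa by 0.79, and 0 passed with either tether against EV no IL-2. Cd86, which Cd83 protein protects from degradation, rose by 1.16 with IL-2 (adjusted p = 0.00404) while Cd83 fell. Of 4 tested relatives of Capg, 1 fell in 3A10t against EV no IL-2, Flii, by −0.72 (adjusted p = 0.0467), and 0 passed with IL-2. Flii was 85.1, 87.3 and 91.5 scaled TPM in EV no IL-2 and 74.0, 43.6 and 46.1 in 3A10t, again lowest in replicates 2 and 3. The folate receptor genes Folr1 and Folr2, relatives of Izumo1r, were below the 1 TPM needed for the test.

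Other genes of the Treg signature responded to IL-2 in both directions. Of 25 tested, 7 rose and 4 fell in EV+IL-2 against EV no IL-2 (limma adjusted p under 0.05), where 13.3% of all genes passed, with a median of 0.054 beside −0.014 for all genes. Those with the smallest p were Socs2, a feedback regulator of cytokine signaling, at 0.87 (adjusted p = 3.28e-05), Fgl2, a suppressive mediator, at 1.09, Il2ra at 0.76 and Tnfrsf9, a costimulatory receptor, at 0.94. In 3A10t 1 rose, Socs2 by 0.44 (adjusted p = 0.0271), and 1 fell, Itgae, the integrin chain CD103, by −1.02 (adjusted p = 0.0438), beside 2.05% of all genes, and in 1G12t 0 passed by limma, beside 0.0199%. Itgae was 31.0, 32.5 and 30.5 scaled TPM in EV no IL-2 and 24.4, 11.2 and 12.2 in 3A10t, so that replicates 2 and 3, which had the trend on transcript length, were the lowest. Of 9 tested genes that Tregs express less than conventional T cells do, 1 rose and 4 fell with IL-2, beside 13.3% of all genes. Those that fell include Il7r at −1.41 and Tcf7 at −1.96, and the one that rose was Igfbp4, which encodes a binding protein of insulin-like growth factors, by 2.22 (adjusted p = 0.000734), from 57.2, 46.5 and 40.7 scaled TPM to 219, 227 and 232. In 3A10t Tcf7, a factor of resting T cells, fell by −1.05 (adjusted p = 0.0438) and Il2 was higher by 4.29, and in 1G12t Il2 was higher by 3.81. Both tethers contain an IL-2 sequence, and reads of it cannot be told apart here from those of the cells' own Il2 gene.

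**Figure D4:**
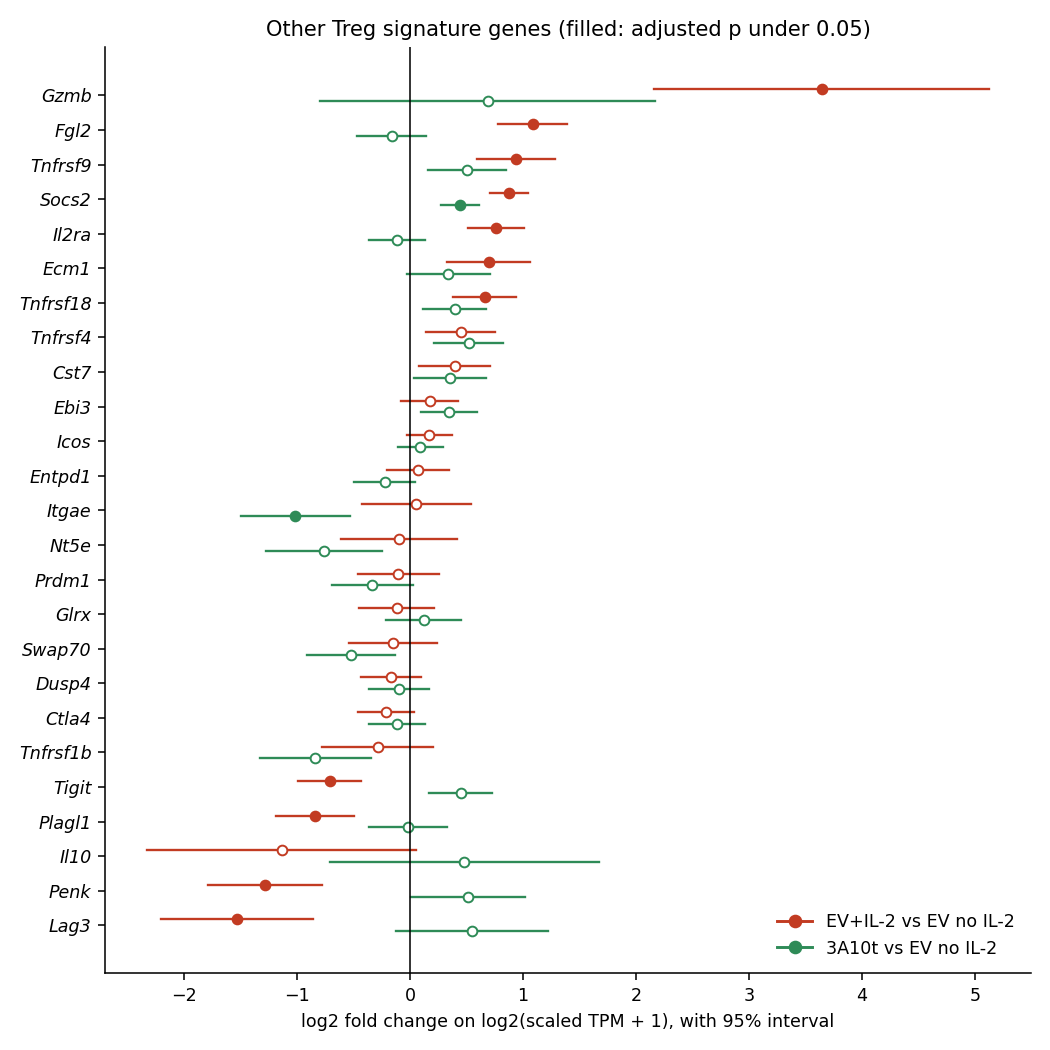
Log2 fold change on log2(scaled TPM + 1), with its 95% interval from limma, of 25 other Treg signature genes (vertical axis) in EV+IL-2 (red) and 3A10t (green) against EV no IL-2, ordered by the red value, with filled symbols where the adjusted p is under 0.05. In EV+IL-2 7 genes are filled above 0 and 4 below, and in 3A10t only Socs2 and Itgae are filled.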

How the data were processed

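The deposited values are TPM, 1 column per library. The authors used Cutadapt 1.18 for trimming, STAR 2.5.3 for alignment to mm10 (GRCm38) and RSEM 1.3.0 with a GENCODE annotation for gene expression. Oligo-dT primed full-length cDNA was amplified before library preparation, so coverage along long transcripts can affect TPM. Samples were grouped by their labels.

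TPM were divided by median-of-ratios factors computed from the 15043 genes that averaged 1 TPM or more. These were tested with limma 3.58.1 (R 4.3.3; trended eBayes) on log2(scaled TPM + 1), a pseudocount of 1, with all 12 libraries and no replicate block, and 6 comparisons were made. Fold changes are on this scale, which understates changes of low genes. Gene positions, types and lengths came from GENCODE M21 (GRCm38), which holds 53569 of the symbols. Figures were drawn with Python 3.11.15 and matplotlib 3.10.9.

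The 9 genes and the gene lists were chosen with earlier results of these data known. All 9 are named. Of each list, up to 4 genes with the smallest p in the comparison described are named, so that not every gene that passed is named, and for each member the protein-coding genes most correlated with it over 12 libraries. Ctla4, as a Treg marker, and the genes that overlap Foxp3 are named outside this rule.

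Same-numbered libraries share a sort by the labels. Their deviations from the group means had a mean correlation of 0.041 over 18 pairs (−0.11 to 0.15), against −0.020 for 36 pairs with different numbers. Deviations within a group cancel out, so the second value follows closely from the first and adds no separate evidence.

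On data simulated for EV+IL-2 against EV no IL-2 with 15043 genes, of 200 changed genes, the code recovered 15 of 65 at a log2 change of 0.5, 50 of 73 at 1 and 56 of 62 at 2, with 6 false calls. The changed genes were drawn from all genes tested, and 2002 genes passed in the real comparison. The recovery is thus not that of the 9 members, whose SEs ran from 0.079 (Foxp3) to 0.26 (Nrp1). For a member with a large SE a change of 0.5 could be missed.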

Additional observations from a re-analysis of the deposited data

How the results depend on the processing

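Of 999 fold changes of the 9 genes under alternative settings, 893 kept their direction and their side of the threshold, 15 no longer passed, 50 newly passed and 41 changed sign, all of the latter for differences that had not passed. Of 111 counts of members called, 17 moved by more than 1.5 times. The count for EV+IL-2 against EV no IL-2 was 4 with TPM as deposited, with quantile normalization and with protein-coding genes only. It was 5 with the length correction, alone or with the replicate block. With only the 6 libraries compared it was 6, where Ikzf4, Nrp1, Izumo1r and Capg newly passed. With the replicate block alone that count was 3 and 2 when any 1 library was left out, and beyond Ikzf2 the block alone changed no other call of a member in any comparison. For 3A10t against EV no IL-2 the count was 2 with protein-coding genes only (Foxp3 and Lrrc32), 4 with the length correction and without 3A10t replicate 1, and 0 to 7 with 1 library left out, 7 without 3A10t replicate 1. For 3A10t against 1G12t it was 2 with a mean TPM of at least 5, 1 with TPM as deposited or quantile normalization, 3 with protein-coding genes only, 5 with the length correction and without 3A10t replicate 1, and 0 to 6 with 1 library left out, 6 without 3A10t replicate 1. For 1G12t against EV+IL-2 it was 2 to 3 with 1 library left out. The scaling moved the median of all genes tested by over 0.1 for 3A10t, from 0.026 to −0.091 (TPM as deposited) and −0.13 (protein-coding genes only) against EV no IL-2 and from −0.017 to −0.18 and −0.20 against 1G12t. The sign changes were as follows. With TPM as deposited, quantile normalization and protein-coding genes only, in that order, Foxp3 was −0.038, −0.15 and −0.053 in EV+IL-2 against EV no IL-2 and 0.085, 0.24 and 0.11 in 1G12t against EV+IL-2, and Capg was 0.023, 0.087 and 0.038 in 1G12t against EV no IL-2. Cd83 was −0.062 with TPM as deposited and −0.044 with protein-coding genes only in 3A10t against EV no IL-2, and with quantile normalization Lrrc32 was 0.014 in 1G12t against EV no IL-2 and Ikzf4 0.00094 in 3A10t against EV+IL-2. With the length correction, alone or with the replicate block, Ikzf2 was 0.091 and Ikzf4 0.031 in 3A10t against 1G12t, and Ikzf4 was 0.12 in 3A10t against EV+IL-2, and without 3A10t replicate 1 as well Ikzf2 was 0.11 against 1G12t. With 1 library left out, differences from EV no IL-2 ranged from −0.0077 to 0.23 for Cd83 in 3A10t, and in 1G12t from −0.0058 to 0.020 for Foxp3, −0.14 to 0.0062 for Lrrc32, −0.062 to 0.39 for Nrp1 and −0.063 to 0.0063 for Capg. Those of 3A10t from 1G12t ranged from −0.33 to 0.16 for Ikzf2. Those of 3A10t from EV+IL-2 ranged from −0.28 to 0.12 for Ikzf4, −0.46 to 0.032 for Nrp1, −0.014 to 0.23 for Gpr83 and −0.22 to 0.087 for Capg, and those of 1G12t from EV+IL-2 from −0.45 to 0.037 for Ikzf2. The cause of these changes was not tested. Groups of 3 libraries, a single pool of cells and TPM without depth limit the precision of every value.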
